A study of Mus musculus with 6 samples.

Results

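The lysosomal gene module comprised 53 of the 23224 genes in the deposited table. It was set by gene name, with earlier results of these data known. It held 30 listed genes for lysosomal proteases, glycosidases, lipid-handling and membrane proteins, the regulator Tfeb and the lysozyme Lyz2, together with all 23 genes whose symbols start with Atp6v. Of these members 46 passed the filter on low counts and were tested. The other 7 members were the cathepsin gene Ctsf and the proton pump genes Atp6v0a4, Atp6v0e2, Atp6v1b1, Atp6v1c2, Atp6v1e2 and Atp6v1g3. Among them, Atp6v1b1, Atp6v1c2, Atp6v1e2 and Atp6v1g3 were at 0 in all 6 libraries. A count of 0 in both libraries of a group allows up to 3 counts, that is 0.147 CPM in CD103+ DC1, 0.104 CPM in ISG+ DC of Rag2-/- hosts and 0.137 CPM in ISG+ DC of WT hosts, for counting error only.

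Lysosomes are acidic organelles in which proteases, glycosidases and lipases break down material taken up from outside the cell or delivered by autophagy. The vacuolar proton pump (V-ATPase) acidifies them. Its V1 sector splits ATP on the cytosolic face and its V0 sector passes protons through the membrane. In dendritic cells (DC), lysosomal proteases cut antigen and the invariant chain for presentation on MHC class II, and cathepsin S is known for the last step of invariant chain removal. The conventional DC1 lineage is known for mild endosomal proteolysis, which preserves antigen for cross-presentation on MHC class I.

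The study compared, by bulk RNA sequencing, DC sorted from subcutaneous MC57-SIY tumors of C57BL/6 mice at day 7 after implantation. MC57-SIY is a mouse fibrosarcoma line carrying SIY, a model antigen of CD8+ T cells. The 3 groups held 2 libraries each: live CD103+ DC1 from Rag2-/- hosts, ISG+ DC from Rag2-/- hosts, and ISG+ DC from WT hosts. Without Rag2 antigen receptor genes cannot be rearranged, so these hosts have no mature T or B cells. All hosts carried tumors, so no library from a tumor-free mouse was compared, and CD103+ DC1 from WT hosts were not analysed here. The series title describes CD11b+ conventional DC, whereas the sort gate of the ISG+ DC is not given in the labels. Tumors were pooled before sorting, and per the labels each sample type came from 2 separate experiments, so the p-values rest on 2 libraries a group.

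Libraries held between 6023510 and 15368616 estimated counts and between 12323 and 14051 genes with a count. The shallowest was CD103+ DC1 replicate 3, and the 2 libraries of that group were least alike (Spearman's rho across genes 0.887, against 0.939 and 0.925 in the ISG+ DC groups). The DC1 marker list (Xcr1, Clec9a, Itgae and 5 others) summed to between 4355 and 7792 CPM in CD103+ DC1 and to between 589 and 1063 CPM in the ISG+ DC libraries. Wdfy4 alone gave 4604 and 2198 CPM in CD103+ DC1, 749 and 809 CPM in Rag2-/- ISG+ DC and 335 and 308 CPM in WT ISG+ DC. Xcr1, Clec9a and Itgae were each at 230.6 CPM or more in CD103+ DC1 and at 21.98 CPM or less in the ISG+ DC libraries. Markers of CD11b+ conventional DC (Itgam, Sirpa, Irf4 and 4 others) summed to between 203 and 215 CPM in CD103+ DC1, to between 2570 and 2976 CPM in Rag2-/- ISG+ DC and to between 3207 and 3316 CPM in WT ISG+ DC. Between hosts 0 of these 7 differed at an unadjusted p under 0.05 in edgeR, and 0 passed in DESeq2. The WT libraries lay above without overlap for 1 (Sirpa) and below for 3 (Irf4, Clec10a and Cd209a), against 21.4% and 23.1% of all genes. Their median log2 difference was -0.06. The sums of macrophage and monocyte markers rose in the same order of groups, although single markers did not all follow. They are given beside each comparison. The targeted gene Rag2 was listed with 39, 11, 40 and 2 estimated counts in the libraries labelled Rag2-/- and 0 in both WT libraries, and where those reads lie in the gene cannot be seen in a count per gene.

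Transcription of many lysosomal genes is driven by TFEB and its relatives, which bind an E-box, and interferon-responsive genes often carry paired GAAA repeats. RefSeq promoters on GRCm38.p6, from 250 bases before to 50 bases after a gene's start, were found for 41 of the 53 members, with 49 promoters in all because some genes have several starts. The E-box core CACGTG stood in the promoters of 13 of the 41 members, or 26.5% of member promoters against 7.15% of all 32851 promoters. Its extended form TCACGTGA, which contains the core, was found in 7 members, or 14.3% against 0.974%. That form with a further G before it and C after it was found in no member and in 0.326% of all promoters. The pair GAAA, any 2 bases, GAAA, searched like the others on both strands and overlapping none of them, was found in 3 members (Ctss, Lamp1 and Atp6v1d), or 6.12% against 3.44%. Of the 11 members called higher in ISG+ DC than in CD103+ DC1, 9 had a promoter in the table and 5 of those held CACGTG, namely Ctsa, Ctsd, Ifi30, Lamp1 and Lgmn. Of the 35 tested members not called higher, 25 had a promoter and 7 held it. These matches describe letters, not bound sites.

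The stretches of 250 bases before the start are shown for 6 members whose transcripts changed in a comparison. They are 4 with E-boxes that rose together (Lamp1, Ctsd, Ctsa, Ifi30), Ctss for its GAAA pair, and Ctsl. Ctsl was chosen as the only member that passed between hosts in the edgeR fit of all 6 libraries. Further members passed between hosts in other analyses, as given below. Capitals mark CACGTG, with its outer T and A where TCACGTGA is complete, and in Ctss and Lamp1 the GAAA pair, which in Lamp1 reads on the other strand. In Lamp1 the 4 E-box cores begin 61, 45, 28 and 15 bases before the start. The positions, on GRCm38.p6, are chr8:13158911-13159160 on the plus strand for Lamp1, chr7:142387828-142388077 on the minus strand for Ctsd, chr2:164833523-164833772 on the plus strand for Ctsa, chr8:70766664-70766913 on the minus strand for Ifi30, chr3:95526536-95526785 on the plus strand for Ctss and chr13:64370521-64370770 on the minus strand for Ctsl, and each sequence is written 5′ to 3′ on its gene's strand.
Lamp1: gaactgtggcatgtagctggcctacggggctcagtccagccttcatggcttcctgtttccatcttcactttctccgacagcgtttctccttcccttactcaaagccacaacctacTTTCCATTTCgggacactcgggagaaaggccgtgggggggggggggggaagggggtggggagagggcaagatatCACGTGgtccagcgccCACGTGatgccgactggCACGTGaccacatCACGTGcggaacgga
Ctsd: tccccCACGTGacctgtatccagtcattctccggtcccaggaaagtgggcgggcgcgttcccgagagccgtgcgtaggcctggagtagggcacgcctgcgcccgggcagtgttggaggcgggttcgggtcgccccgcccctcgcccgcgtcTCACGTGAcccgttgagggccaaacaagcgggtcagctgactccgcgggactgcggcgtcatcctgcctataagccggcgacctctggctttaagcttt
Ctsa: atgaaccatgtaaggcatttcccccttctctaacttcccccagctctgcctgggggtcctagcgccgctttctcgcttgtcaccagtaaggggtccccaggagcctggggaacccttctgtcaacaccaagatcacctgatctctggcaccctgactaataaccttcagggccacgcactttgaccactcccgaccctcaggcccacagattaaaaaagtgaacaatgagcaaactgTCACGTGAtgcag
Ifi30: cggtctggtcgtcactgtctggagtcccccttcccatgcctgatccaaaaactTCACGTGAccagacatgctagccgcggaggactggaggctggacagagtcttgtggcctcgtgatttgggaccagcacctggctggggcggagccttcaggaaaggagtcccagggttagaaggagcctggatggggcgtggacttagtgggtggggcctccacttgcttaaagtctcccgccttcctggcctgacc
Ctss: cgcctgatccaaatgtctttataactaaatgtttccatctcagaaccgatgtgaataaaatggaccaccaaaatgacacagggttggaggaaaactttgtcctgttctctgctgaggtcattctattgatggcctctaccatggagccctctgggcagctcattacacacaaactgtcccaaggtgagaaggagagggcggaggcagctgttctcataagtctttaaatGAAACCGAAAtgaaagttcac
Ctsl: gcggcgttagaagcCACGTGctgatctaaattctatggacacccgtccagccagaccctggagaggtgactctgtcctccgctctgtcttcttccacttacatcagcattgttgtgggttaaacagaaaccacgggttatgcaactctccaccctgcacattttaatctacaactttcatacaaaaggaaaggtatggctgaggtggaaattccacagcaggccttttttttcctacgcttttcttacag

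The first comparison asked how ISG+ DC and CD103+ DC1 from tumors of Rag2-/- hosts differed in lysosomal transcripts. Lysosomal proteases were higher in ISG+ DC, by 2.82-fold to 4.77-fold among the 7 protease genes that passed, while of the V-ATPase genes, as counted under their own symbols, 0 rose and 2 fell in edgeR. In all, 11 of the 46 tested members rose (Ctsa, Ctsb, Ctsc, Ctsd, Ctsh, Ctss, Lgmn, Ifi30, Lamp1, Cd68 and Lyz2) and 2 fell (Atp6v0a2 and Atp6v1d), by the quasi-likelihood test of edgeR (adjusted by Benjamini-Hochberg over all genes). A gene is said to pass, rise or fall by this test unless another tool is named. Of all 13223 genes tested, 488 or 3.69% passed, 2.83% as higher and 0.862% as lower. Both ISG+ DC libraries lay above both CD103+ DC1 libraries for 25 of the 46 members, against 23.9% of all genes, and below them for 4, against 22% of all genes. The median log2 difference of the members was 0.80, against -0.02 for all genes tested. At an unadjusted p under 0.05 in edgeR, 20 members were higher and 4 lower, against 8.8% and 6.11% of all genes. In DESeq2 15 members were higher and 2 lower, against 5.13% and 3.02% of all genes.

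All 11 tested genes of the 12 for proteases and the thiol reductase had both ISG+ DC libraries above both CD103+ DC1 libraries, and 8 of them passed, with a median log2 difference of 1.76 over the 11. The summed level of the 12 genes was between 1532 and 1833 CPM in CD103+ DC1 and between 5347 and 6176 CPM in Rag2-/- ISG+ DC. Ctss, the cathepsin S gene, was at 555 and 553 CPM in the CD103+ DC1 libraries and at 2231 and 2223 CPM in the Rag2-/- ISG+ DC libraries. The libraries of each group nearly coincided and the groups stood far apart. The log2 fold change was 2.01 ± 0.21 (SE, edgeR adjusted p = 0.00079).

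Among the other cysteine proteases, Ctsh, which encodes the aminopeptidase cathepsin H, was at 82.7 and 63.7 CPM in CD103+ DC1 and at 341 and 347 CPM in ISG+ DC, a log2 rise of 2.23 ± 0.27 (SE, edgeR adjusted p = 0.00154). Ctsc, whose product cathepsin C activates granule serine proteases, was at 116 and 153 CPM against 332 and 580 CPM, a log2 rise of 1.76 ± 0.31 (SE, edgeR adjusted p = 0.00966). Lgmn encodes legumain, which cuts after asparagine, and measured 120 and 92.7 CPM against 292 and 395 CPM, a log2 rise of 1.69 ± 0.26 (SE, edgeR adjusted p = 0.00515). In none of these did a CD103+ DC1 library reach an ISG+ DC library.

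Ctsb, the cathepsin B gene, was at 262 and 190.0 CPM in CD103+ DC1 and at 508 and 766 CPM in ISG+ DC, a log2 rise of 1.50 ± 0.28 (SE, edgeR adjusted p = 0.0136). Ctsl, whose product cathepsin L degrades invariant chain in thymic epithelium, did not pass, at 102 and 48.0 CPM against 108 and 103 CPM (edgeR adjusted p = 0.598). Its ISG+ DC libraries lay only just above the higher CD103+ DC1 library. Ctsz, for the carboxypeptidase cathepsin Z, had a log2 difference of 1.08 ± 0.27 (SE) that did not pass in edgeR (adjusted p = 0.0564). It passed as higher in DESeq2 (adjusted p = 0.002714) and in edgeR without the filter on low counts (adjusted p = 0.006245).

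Ctsa, for the serine carboxypeptidase that also protects neuraminidase, was at 56.0 and 70.4 CPM in CD103+ DC1 and at 275 and 326 CPM in ISG+ DC, a log2 rise of 2.25 ± 0.27 (SE, edgeR adjusted p = 0.00154). Ctsd, for the aspartic protease cathepsin D, was at 72.3 and 44.2 CPM against 215 and 317 CPM, a log2 rise of 2.19 ± 0.32 (SE, edgeR adjusted p = 0.00333). Ifi30 encodes GILT, the interferon-inducible thiol reductase that opens disulfide bonds of antigens, and was at 271 and 187 CPM against 681 and 784 CPM, a log2 rise of 1.68 ± 0.26 (SE, edgeR adjusted p = 0.00483). All 3 had groups that did not overlap. Ctse, for the endosomal aspartic protease cathepsin E, was low throughout, at 2.39 and 0 CPM in CD103+ DC1 and at 7.74 and 6.34 CPM in ISG+ DC, and did not pass (edgeR adjusted p = 0.703).

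Beside the proteases, Lyz2, the lysozyme gene of myeloid cells, was at 211 and 203 CPM in CD103+ DC1 and at 720.0 and 1449 CPM in ISG+ DC, a log2 rise of 2.39 ± 0.32 (SE, edgeR adjusted p = 0.00218). The ISG+ DC libraries differed widely from each other, and both lay well above CD103+ DC1. Lyz1, a near copy of Lyz2, was at 17.7 and 5.65 CPM against 94.7 and 145 CPM, so reads that fit both genes may have been split between them. The macrosialin gene Cd68 was at 60.2 and 50.4 CPM against 144 and 219 CPM, a log2 rise of 1.71 ± 0.31 (SE, edgeR adjusted p = 0.0109). Lamp1, for the abundant lysosomal membrane glycoprotein whose promoter has 4 E-boxes, was at 130.1 and 96.1 CPM against 286 and 336 CPM, a log2 rise of 1.46 ± 0.26 (SE, edgeR adjusted p = 0.0106).

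**Figure D1:**
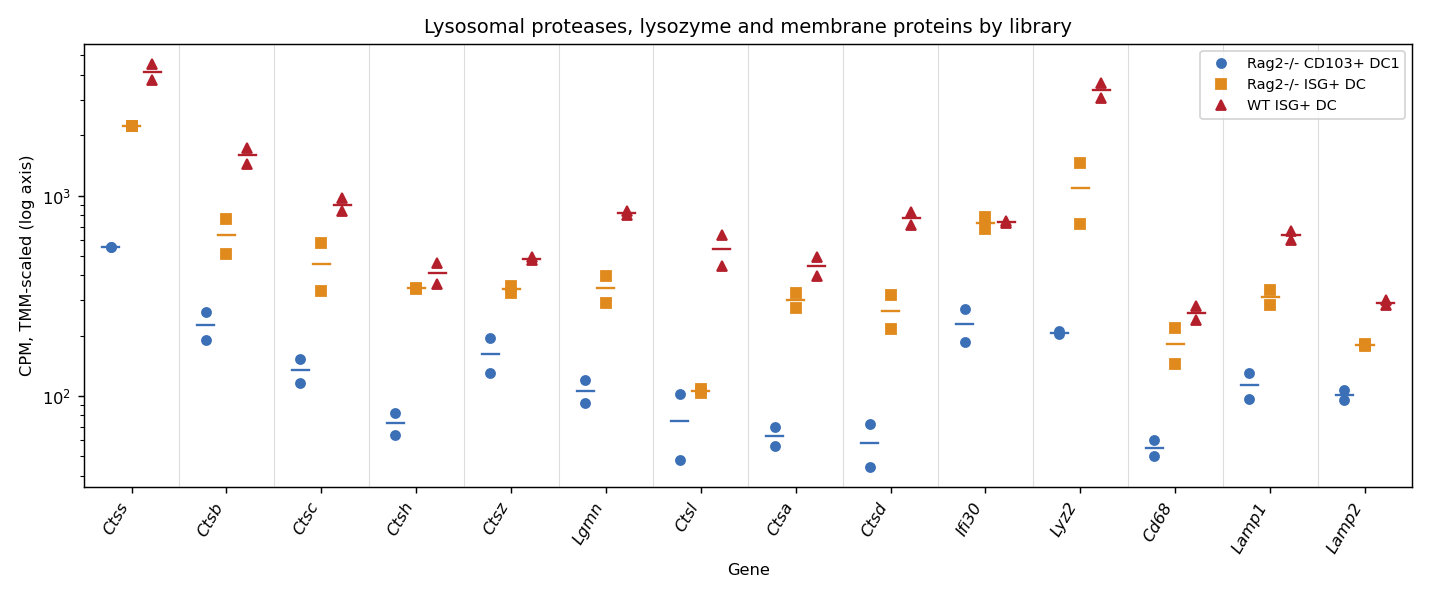
Normalised read counts of 14 members for proteases, the thiol reductase, lysozyme and membrane proteins in CPM on a log axis, with 1 point per library, horizontal bars for the mean of 2 libraries, and colours and shapes for the 3 groups. For Ctss the CD103+ DC1 libraries sit at 555 and 553 CPM, the Rag2-/- ISG+ DC libraries at 2231 and 2223 CPM and the WT ISG+ DC libraries at 3750 and 4521 CPM, while for Ctsl the Rag2-/- groups sit close together and the WT libraries apart.

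Other membrane members did not pass in edgeR, and in DESeq2 Lamp2 did (adjusted p = 0.03625). Lamp2, a lysosomal membrane protein of chaperone-mediated autophagy, was at 95.6 and 107 CPM in CD103+ DC1 and at 177 and 182 CPM in ISG+ DC, with groups apart but a log2 difference of 0.83 ± 0.25 (SE, edgeR adjusted p = 0.128). Cd63, a tetraspanin of late endosomes and exosomes, overlapped at 48.7 and 28.6 CPM against 31.2 and 20.6 CPM. Mcoln1, for the calcium channel mucolipin, overlapped as well, at 19.4 and 3.94 CPM against 21.1 and 11.5 CPM.

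Enzymes and carriers of sugar and lipid breakdown went both ways in this comparison, and 0 of 11 passed in edgeR. None of the 5 glycosidase genes passed in edgeR or DESeq2, 0 had an unadjusted p under 0.05, and their median log2 difference was 0.29. Gaa, for the acid glucosidase that degrades glycogen, was at 49.3 and 10.1 CPM in CD103+ DC1 and at 46.3 and 62.9 CPM in ISG+ DC. Man2b1, for lysosomal mannosidase, was at 635 and 261 CPM against 324 and 319 CPM, so that here the CD103+ DC1 libraries enclosed the ISG+ DC libraries. Of the glycosidases, Neu1, for neuraminidase, was the only one with groups apart (log2 1.04 ± 0.48 SE, edgeR adjusted p = 0.346).

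None of the 6 lipid-handling genes passed in edgeR either, where 2 were higher and 1 lower at an unadjusted p under 0.05, and in DESeq2 Grn passed. Psap, for the saposin precursor that activates sphingolipid hydrolases, was at 5122 and 2389 CPM in CD103+ DC1 and at 1680.0 and 2291 CPM in ISG+ DC. Its log2 difference was -0.92 ± 0.32 (SE, edgeR adjusted p = 0.190), with both ISG+ DC libraries under the lower CD103+ DC1 library. Npc2, for the soluble cholesterol carrier, overlapped at 283 and 176 CPM against 208 and 199 CPM. Grn, for progranulin, was at 431 and 432 CPM against 740.3 and 741 CPM, a log2 difference of 0.78 ± 0.21 (SE) that did not pass (edgeR adjusted p = 0.0869). Lipa, for acid lipase, was at 57.3 and 24.0 CPM against 74.3 and 77.1 CPM (edgeR adjusted p = 0.328).

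The proton pump showed no common shift. It was counted as the 23 genes whose symbols start with Atp6v. These include the pseudogene Atp6v0c-ps2 and leave out Tcirg1, for an a subunit isoform of V0. Of the 23 genes 17 were tested, 0 rose and 2 fell in edgeR, against 4 higher and 3 lower at an unadjusted p under 0.05 and 1 higher (Atp6v0c-ps2) and 2 lower in DESeq2. Their median log2 difference was 0.17. Atp6v0c-ps2 lies above this median with its fitted value and with its lower bound alike, so that choice cannot move the median. The summed level of the 23 genes was between 1164 and 1270 CPM in CD103+ DC1 and between 1060 and 1129 CPM in Rag2-/- ISG+ DC. Atp6v0a2, for an a subunit isoform of the V0 sector, was at 336 and 373 CPM in CD103+ DC1 and at 147 and 172 CPM in ISG+ DC, a log2 fall of -1.15 ± 0.25 (SE, edgeR adjusted p = 0.0333), which did not pass with the replicate number as a block (edgeR adjusted p = 0.0809). Atp6v1d, for the D subunit of the central rotor of V1, was at 136 and 250 CPM against 71.3 and 65.1 CPM, a log2 fall of -1.50 ± 0.36 (SE, edgeR adjusted p = 0.0468). In both genes the groups did not overlap, although the Atp6v1d values of CD103+ DC1 were far apart from each other.

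Subunit genes with the opposite direction included Atp6v0a1, for another a subunit isoform, at 56.5 and 35.3 CPM against 82.7 and 101 CPM (edgeR adjusted p = 0.234), and Atp6v1c1, for a C subunit, with a log2 difference of 0.97 ± 0.38 (SE, edgeR adjusted p = 0.256). In both, the ISG+ DC libraries lay above the CD103+ DC1 libraries without passing. Atp6v1a, for the catalytic A subunit, overlapped at 58.6 and 40.3 CPM against 76.2 and 48.6 CPM. Atp6v1g2, for a G subunit isoform known mainly from neurons, had at most 13 estimated counts in a library.

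**Figure D2:**
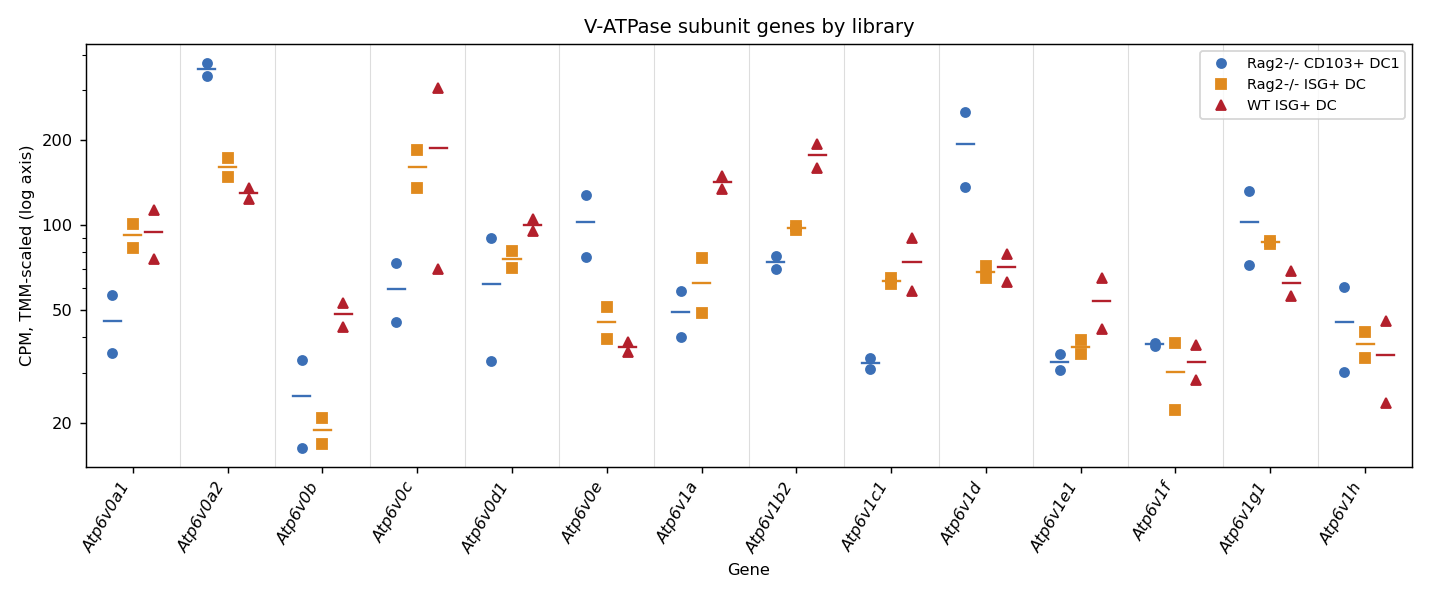
Normalised read counts of 14 V-ATPase subunit genes in CPM on a log axis, with 1 point per library and horizontal bars for the mean of 2 libraries. Atp6v0a2 and Atp6v1d sit higher in CD103+ DC1 than in either ISG+ DC group, Atp6v0a1 and Atp6v1c1 sit lower there, and Atp6v1a and Atp6v1b2 sit highest in the WT libraries.

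Atp6v0c, for the proteolipid ring of V0, could not be read from its own row. It was at 73.5 and 45.6 CPM in CD103+ DC1, at 135 and 184 CPM in Rag2-/- ISG+ DC and at 69.9 and 305 CPM in WT ISG+ DC. The pseudogene Atp6v0c-ps2 was at 0 in both CD103+ DC1 libraries, at 37.6 and 81.6 CPM in Rag2-/- ISG+ DC, and at 253 and 0 CPM in WT ISG+ DC. The WT libraries thus held most of these reads under different symbols. In the edgeR fit of all 6 libraries neither row passed alone in either comparison. Between populations Atp6v0c-ps2 passed in DESeq2 (adjusted p = 3.1e-05), and both rows passed as higher in edgeR without the filter on low counts and with the replicate number as a block. Added together, a choice made after seeing the data, the rows came to 73.5 and 45.6 CPM, 173 and 266 CPM, and 323 and 305 CPM, and the WT libraries then lay close together. The sum was higher in ISG+ DC than in CD103+ DC1 by a log2 value of 1.88 ± 0.33 (SE, edgeR adjusted p = 0.0102), and its host difference was 0.52 ± 0.32 (SE, edgeR adjusted p = 0.681).

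**Figure D3:**
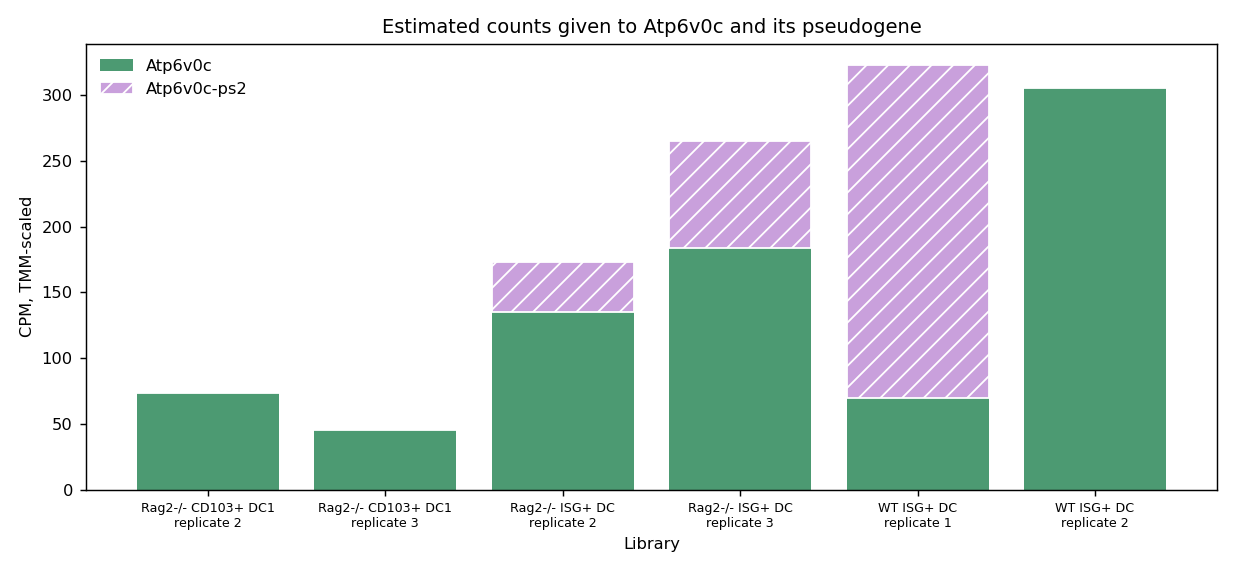
Stacked bars of the normalised read counts assigned to Atp6v0c (green) and to its pseudogene Atp6v0c-ps2 (hatched) in each of the 6 libraries, in CPM on a linear axis from 0. The hatched part is absent in CD103+ DC1 and in WT replicate 2 and makes up most of WT replicate 1, while the whole bars of the WT libraries are alike at 323 and 305 CPM.

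Several of these calls were lost when 1 library was left out. Such a fit leaves 1 library in that group, so a lost call need not mean a changed value. Without Rag2-/- ISG+ DC replicate 3, 7 members rose, and the log2 values of Ctsb (1.17), Ctsc (1.31), Lamp1 (1.34) and Cd68 (1.38) no longer passed, while that of Lyz2 dropped to 1.80 and still passed. Atp6v0a2 and Atp6v1d did not pass without Rag2-/- ISG+ DC replicate 2 (log2 -1.04 and -1.57) or without replicate 3 (log2 -1.27 and -1.43), and Atp6v1d did not pass without CD103+ DC1 replicate 3 (log2 -0.98). Without CD103+ DC1 replicate 2, 22 members rose and 3 fell, while 9.1% of all genes tested rose and 5.48% fell.

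Macrophage and monocyte markers moved with the proteases. The 15 listed markers (Csf1r, Mrc1, C1qa and others) summed to between 583 and 843 CPM in CD103+ DC1, to between 2845 and 4012 CPM in Rag2-/- ISG+ DC and to between 7216 and 7801 CPM in WT ISG+ DC. Between the populations 10 of the 15 rose and 0 fell, and none was at 0 in both libraries of a group. Apoe (log2 -0.13) and Ms4a7 (log2 0.58) overlapped between the populations. Ctss, Ctsb, Lgmn, Cd68 and Lyz2 are also strongly expressed in macrophages. The part of these cells in the protease differences was not tested. In bulk samples, fewer cells of a type and less RNA per cell cannot be told apart. Neutrophil markers were low, at between 4.97 and 12.4 CPM in CD103+ DC1 and between 12.8 and 33.3 CPM in Rag2-/- ISG+ DC, with S100a8, S100a9 and Camp at 0. The 6 markers of all conventional DC summed to between 12665 and 13143 CPM in CD103+ DC1, mostly from Cd74 (7601 and 5722 CPM) and H2-Ab1 (4427 and 6115 CPM). Of the 6 markers, Itgax rose (log2 1.66) and Flt3 fell (log2 -1.80). Without overlap, 2 markers lay above in ISG+ DC (Itgax and Cd74) and 2 below (Flt3 and Zbtb46), against 23.9% and 22% of all genes. Their part was not tested.

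The second comparison asked how ISG+ DC differed between WT and Rag2-/- hosts, that is, with and without T and B cells in the host. Ctsl was the only member that passed in edgeR, 5.13-fold higher in WT hosts, although 30 of the 46 tested members had both WT libraries above both Rag2-/- libraries. Of all 13223 genes, 73 or 0.552% passed, 0.287% as higher and 0.265% as lower, and 21.4% had the WT libraries above without overlap. For 4 members the WT libraries lay below without overlap, against 23.1% of all genes. The median log2 difference of the members was 0.55, against -0.03 for all genes. At an unadjusted p under 0.05 in edgeR, 17 members were higher and 0 lower, against 4.56% and 5.32% of all genes. Both comparisons share the Rag2-/- ISG+ DC libraries.

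Ctsl was at 108 and 103 CPM in the Rag2-/- ISG+ DC libraries and at 447 and 638 CPM in the WT ISG+ DC libraries, with the groups far apart. Its log2 fold change was 2.36 ± 0.37 (SE, edgeR adjusted p = 0.0271). The call was lost without either Rag2-/- ISG+ DC library, at a log2 value of 2.39 (edgeR adjusted p = 0.104) when replicate 2 was left out and 2.33 (edgeR adjusted p = 0.0612) when replicate 3 was.

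Further proteases had WT libraries above Rag2-/- libraries without passing in the edgeR fit of all 6 libraries. In DESeq2 Ctsd (adjusted p = 0.0001382), Ctsb (adjusted p = 0.0002872), Lgmn (adjusted p = 0.0001597) and Ctss (adjusted p = 0.0005629) passed as higher in WT hosts. Ctsd was at 215 and 317 CPM in Rag2-/- hosts and at 715 and 830.1 CPM in WT hosts, a log2 difference of 1.54 ± 0.31 (SE, edgeR adjusted p = 0.0557). Ctsb was at 508 and 766 CPM against 1437 and 1734 CPM, a difference of 1.32 ± 0.28 (SE, edgeR adjusted p = 0.0673). For Lgmn the values were 292 and 395 CPM against 834 and 797 CPM, a difference of 1.25 ± 0.26 (SE, edgeR adjusted p = 0.0644). In each of them the lower WT library lay well above the higher Rag2-/- library.

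Ctss was at 2231 and 2223 CPM in Rag2-/- hosts and at 3750.0 and 4521 CPM in WT hosts, a log2 difference of 0.89 ± 0.20 (SE, edgeR adjusted p = 0.0881). Ctsc had a difference of 0.98 ± 0.30 (SE, edgeR adjusted p = 0.231), with 332 and 580 CPM against 832 and 968 CPM. The remaining proteases were closer together, with Ctsa at 0.56 ± 0.26, Ctsz at 0.50 ± 0.26 and Ctsh at 0.26 ± 0.26 on the log2 scale (SE), and none passed in edgeR or DESeq2. Ifi30 overlapped between hosts, at 681 and 784 CPM against 750.2 and 728 CPM, a log2 difference of 0.01 ± 0.25 (SE). Ctse went the other way, at 7.74 and 6.34 CPM in Rag2-/- hosts against 0.71 and 0 CPM in WT hosts, and did not pass (edgeR adjusted p = 0.664). Over the 12 genes, the summed level was between 5347 and 6176 CPM in Rag2-/- hosts and between 9999.7 and 11665 CPM in WT hosts.

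All 6 lipid-handling genes had WT libraries above Rag2-/- libraries, against 21.4% of all genes, as did all 7 tested genes for cysteine cathepsins and legumain. The lipid-handling genes had a median log2 difference of 1.13. None passed in edgeR, where 4 were higher at an unadjusted p under 0.05, and 3 passed in DESeq2 (Lipa, Npc2 and Psap). Psap was at 1680.0 and 2291 CPM in Rag2-/- hosts and at 5337 and 6062 CPM in WT hosts, a difference of 1.52 ± 0.33 (SE, edgeR adjusted p = 0.0748). Lipa was at 74.3 and 77.1 CPM against 194 and 212 CPM, a difference of 1.42 ± 0.40 (SE, edgeR adjusted p = 0.172). Npc2 was at 208 and 199 CPM against 443 and 453 CPM, a difference of 1.14 ± 0.28 (SE, edgeR adjusted p = 0.111). In these genes each WT library stood well clear of both Rag2-/- libraries. Npc1, for the membrane partner of Npc2, differed by 1.11 ± 0.44 (SE, edgeR adjusted p = 0.406). Grn hardly differed, at 740.3 and 741 CPM against 779 and 786 CPM, and Asah1, for acid ceramidase, differed by 0.30 ± 0.26 (SE).

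Among membrane proteins, Lamp1 was at 286 and 336 CPM in Rag2-/- hosts and at 603 and 662 CPM in WT hosts, a log2 difference of 1.02 ± 0.25 (SE, edgeR adjusted p = 0.116). Lamp1 passed in DESeq2 (adjusted p = 0.002712). Lamp2 was at 177 and 182 CPM against 283 and 300.2 CPM, a difference of 0.70 ± 0.25 (SE, edgeR adjusted p = 0.339). Mcoln1 was at 21.1 and 11.5 CPM against 44.7 and 34.9 CPM, a difference of 1.28 ± 0.75 (SE, edgeR adjusted p = 0.656). These 3 genes had groups apart. Cd68, at 144 and 219 CPM against 239 and 282 CPM, was apart by little, and Cd63, at 31.2 and 20.6 CPM against 29.4 and 21.9 CPM, was not.

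Lyz2 was at 720.0 and 1449 CPM in Rag2-/- hosts and at 3052 and 3646 CPM in WT hosts, a log2 difference of 1.63 ± 0.31 (SE) just outside the threshold (edgeR adjusted p = 0.0516). Lyz2 passed in DESeq2 (adjusted p = 5.7e-05). With Rag2-/- ISG+ DC replicate 3 left out it was the member called, with a log2 value of 2.22 (edgeR adjusted p = 0.0128), and Ctsl was not. Of the glycosidases 0 passed in edgeR or DESeq2 or had an unadjusted p under 0.05, their median log2 value was 0.31, and Gaa overlapped at 46.3 and 62.9 CPM against 23.9 and 56.9 CPM. Tfeb, the transcription factor of lysosomal genes, was at 12.9 and 5.65 CPM in CD103+ DC1, at 29.96 and 24.9 CPM in Rag2-/- ISG+ DC and at 40.8 and 37.4 CPM in WT ISG+ DC. Each of its groups stood clear of the next. It passed neither between populations (log2 1.55 ± 0.58 SE, edgeR adjusted p = 0.219) nor between hosts (log2 0.51 ± 0.56 SE, edgeR adjusted p = 0.886).

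No V-ATPase gene passed between hosts in edgeR, where 4 were higher at an unadjusted p under 0.05, and Atp6v0d2 passed in DESeq2. The 17 tested had a median log2 difference of 0.23, with the WT libraries above in 6, below in 3 (Atp6v0a2, Atp6v0e and Atp6v1g1) and overlapping in 8, against 21.4% above and 23.1% below among all genes. Atp6v0d2, for a d subunit isoform known from osteoclasts and macrophages, was nearly absent from the Rag2-/- libraries. It was at 0 and 0.17 CPM in CD103+ DC1, at 0.31 and 0 CPM in Rag2-/- ISG+ DC and at 34.1 and 20.9 CPM in WT ISG+ DC. These values correspond to 0, 1, 5, 0, 382 and 209 estimated counts. The fitted log2 difference between hosts was 7.32 ± 1.63 (SE) and did not pass (edgeR adjusted p = 0.0843). Atp6v0d1, for the isoform found in most cells, was at 80.8 and 70.4 CPM in Rag2-/- ISG+ DC and at 94.8 and 105 CPM in WT ISG+ DC (log2 0.40 ± 0.44 SE).

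Atp6v1a was at 76.2 and 48.6 CPM in Rag2-/- hosts and at 149 and 134 CPM in WT hosts, a log2 difference of 1.18 ± 0.36 (SE, edgeR adjusted p = 0.236). Atp6v1b2, for the B subunit that pairs with it in the catalytic head, differed by 0.86 ± 0.29 (SE, edgeR adjusted p = 0.292), and Atp6v0b by 1.36 ± 0.52 (SE, edgeR adjusted p = 0.382). The WT libraries of all 3 lay above the Rag2-/- libraries. Atp6v0a2 and Atp6v1d, which were lower in ISG+ DC than in CD103+ DC1, differed between hosts by -0.30 ± 0.25 and 0.05 ± 0.35 (SE) without passing. The summed level of the 23 pump genes was between 1347 and 1449 CPM in WT ISG+ DC.

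**Figure D4:**
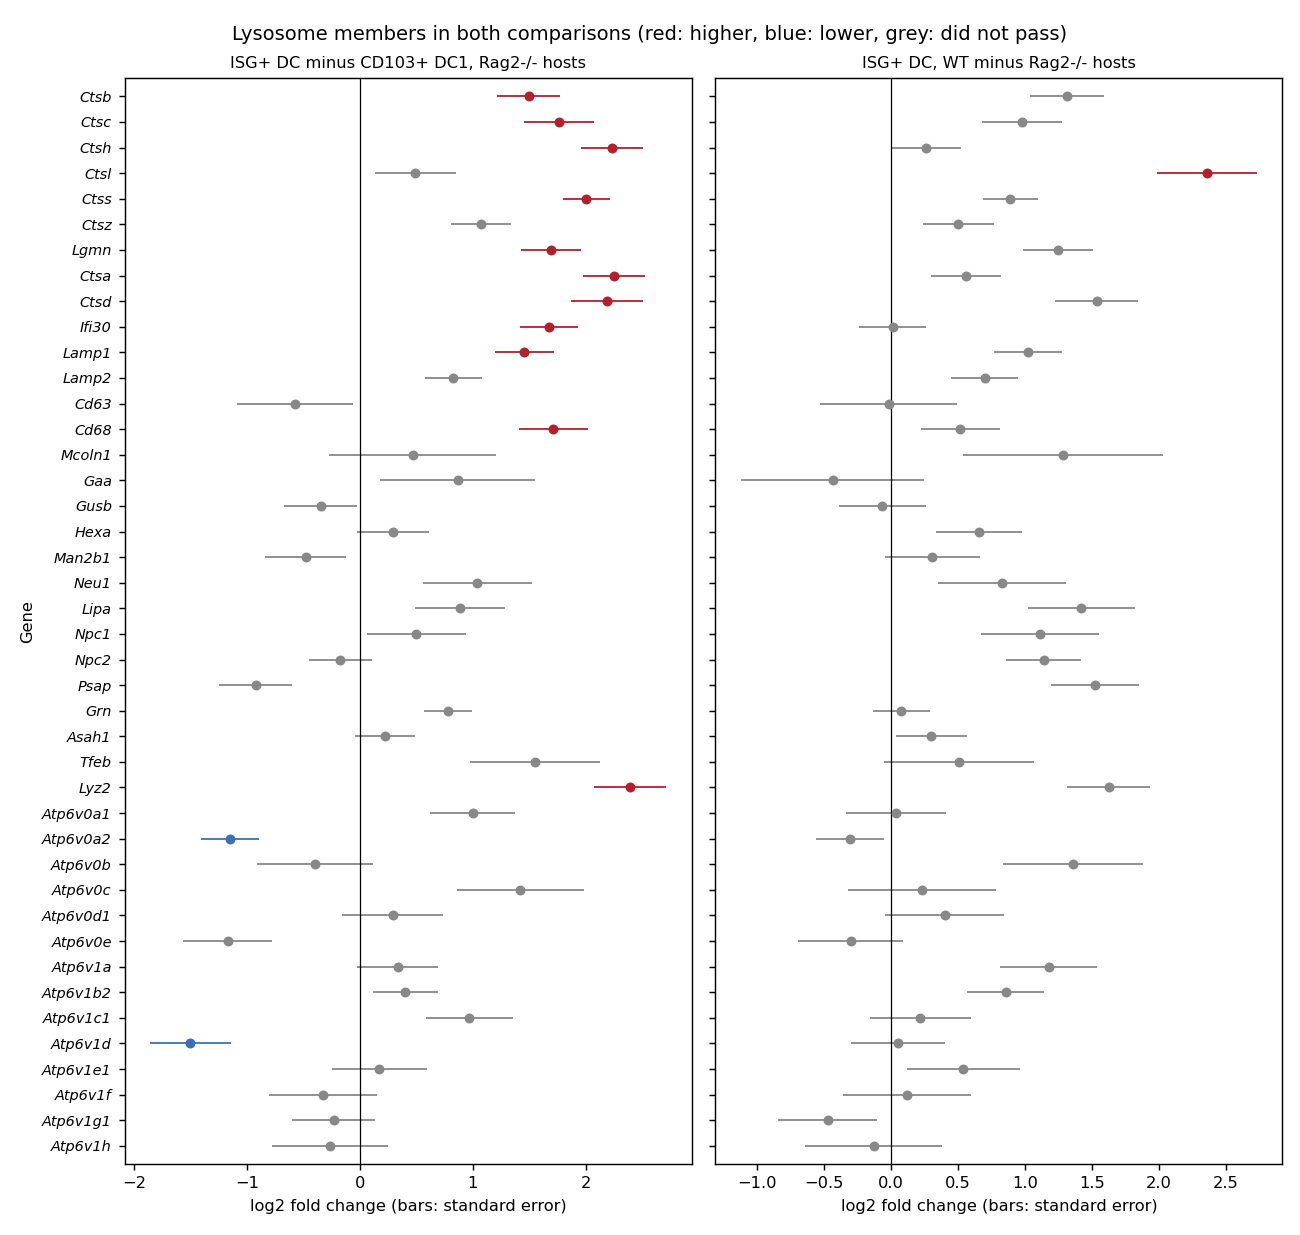
Log2 fold changes of 42 tested members between populations in Rag2-/- hosts (left) and between hosts within ISG+ DC (right), with standard errors as bars. Red points passed as higher, blue points as lower and grey points did not pass, and 4 tested members with a group mean under 1 CPM are left out. Proteases lie to the right of 0 on the left panel, V-ATPase genes lie on both sides, and Ctsl is the red point on the right panel.

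The number of members called between hosts varied with the analysis. It was 11 with DESeq2, 12 without the filter on low counts, 12 in a fit of the 4 ISG+ DC libraries, and 16 without the shallow CD103+ DC1 replicate 3, an alternative added after seeing the data. All of these were higher in WT hosts. Calls rose over all genes too, with 2% of all genes higher in DESeq2, 1.63% without the filter, 2.23% in the fit of 4 libraries and 2.9% without that replicate, against 0.287%. Without Rag2-/- ISG+ DC replicate 2 it was 0 by edgeR, with 12 higher at an unadjusted p under 0.05, and without WT replicate 1 there were 4 higher and 1 lower. Beside these differences, 1 of the 15 macrophage and monocyte markers rose in WT hosts (Apoe) and 0 fell in edgeR, with 11 higher at an unadjusted p under 0.05 and 8 in DESeq2. The WT libraries lay above without overlap for 11 of these markers, against 21.4% of all genes. For 3 of them (Fcgr1, Ly6c2 and Cx3cr1) they lay below, against 23.1%, and Ccr2 overlapped. At an unadjusted p under 0.05 in edgeR, and in DESeq2, 0 of the 15 markers were lower. Their part in the host differences was not tested. Neutrophil markers summed to between 134 and 136 CPM in WT ISG+ DC, above the Rag2-/- libraries, and Csf3r alone made up 126 and 134 CPM of this and passed (log2 2.90, edgeR adjusted p = 0.0350), with S100a8 and Camp at 0. Their part was not tested. The 6 markers of all conventional DC summed to between 16057 and 17452 CPM in Rag2-/- and between 16782 and 17322 CPM in WT ISG+ DC. Most of this was Cd74 (10430 and 10780 CPM in WT) and H2-Ab1 (5914 and 6018 CPM in WT). Of the 6 markers, Flt3 fell in WT hosts, from 145 and 91.3 CPM to 15.8 and 32.4 CPM (log2 -2.29, edgeR adjusted p = 0.0411). The WT libraries lay below without overlap for 3 (Flt3, Zbtb46 and Itgax) and above for 1 (H2-Ab1), against 23.1% and 21.4% of all genes. Zbtb46 was at 157 and 111 CPM against 32.2 and 52.3 CPM (edgeR adjusted p = 0.0534) and passed as lower in DESeq2, and their part was not tested. Fibroblast and fibrosarcoma markers summed to between 659 and 1052 CPM in Rag2-/- ISG+ DC and to between 50.2 and 474 CPM in WT ISG+ DC, and their part was not tested either.

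Other genes of the lysosomal pathway, 145 in 6 lists of which 134 were tested, went both ways between the populations. In edgeR 8 were higher and 8 lower in ISG+ DC, against 2.83% and 0.862% of all genes. Among 34 tested genes for other lysosomal hydrolases, 3 rose and 4 fell, with a median log2 difference of 0.50. Ppt1, for the thioesterase that removes palmitate from proteins, was at 707 and 611 CPM in CD103+ DC1 and at 106 and 101 CPM in ISG+ DC, a log2 fall of -2.68 ± 0.25 (SE, edgeR adjusted p = 0.000527). Naaa, for an amidase of N-acylethanolamines, was at 1977 and 1047 CPM against 226 and 302 CPM, a fall of -2.52 ± 0.32 (SE, edgeR adjusted p = 0.00176). Arsb, for the arylsulfatase of dermatan sulfate, was at 290.0 and 355 CPM against 65.6 and 32.9 CPM, a fall of -2.71 ± 0.37 (SE, edgeR adjusted p = 0.00254). These hydrolases stood far higher in CD103+ DC1.

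Tpp1, for a tripeptidyl peptidase, went with the cathepsins, at 10.2 and 10.6 CPM in CD103+ DC1 against 54.4 and 58.8 CPM in ISG+ DC, a log2 rise of 2.44 ± 0.40 (SE, edgeR adjusted p = 0.00705). Manba, for a lysosomal mannosidase, was named after its values were seen and rose by 2.87 on the log2 scale. Without Rag2-/- ISG+ DC replicate 3 its value of 2.33 did not pass, and without CD103+ DC1 replicate 2 it moved to 3.63. Of 6 tested genes for cathepsin inhibitors, 0 rose and 2 fell in edgeR, the same at an unadjusted p under 0.05 and in DESeq2. Cst3 encodes cystatin C, an inhibitor of cysteine cathepsins, and was at 3080.0 and 3929 CPM against 672 and 645 CPM, a log2 fall of -2.41 ± 0.23 (SE, edgeR adjusted p = 0.000527). Serpinb6b, for an intracellular serpin, had a log2 fall of -1.70 ± 0.40 (SE, edgeR adjusted p = 0.0425), which did not pass without Rag2-/- ISG+ DC replicate 2 (-1.65) or replicate 3 (-1.76).

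Of 31 tested genes for other lysosomal membrane proteins and transporters, 4 rose and 0 fell in edgeR, against 2.83% and 0.862% of all genes. At an unadjusted p under 0.05, 11 were higher and 1 lower, against 8.8% and 6.11%. In DESeq2 9 rose and 1 fell, against 5.13% and 3.02%, and the median log2 difference was 1.02. Slc15a3, for a transporter of peptides and histidine, was at 30.99 and 17.99 CPM in CD103+ DC1 and at 124 and 167 CPM in ISG+ DC, a rise of 2.56 ± 0.36 (SE, edgeR adjusted p = 0.00284). Slc29a3, for a nucleoside transporter, rose by 2.51 ± 0.41, Slc11a1, for the divalent metal transporter Nramp1 of phagosomes, by 2.31 ± 0.46, and Slc15a4, which is needed for endosomal Toll-like receptor signalling, by 1.85 ± 0.43 on the log2 scale (SE). In all 4 the ISG+ DC libraries lay above the CD103+ DC1 libraries. Without Rag2-/- ISG+ DC replicate 2 Slc11a1 (2.17) and Slc15a4 (1.51) did not pass, without replicate 3 Slc15a4 (2.13) did not, and without CD103+ DC1 replicate 2 Slc29a3 and Slc11a1 moved to 3.33 and 3.17. Sorl1, a sorting receptor, rose by 1.49 ± 0.28 (SE, edgeR adjusted p = 0.0143) as the only one of 30 tested sorting genes to pass in edgeR, where DESeq2 called Igf2r and Rab32 as well, and did not pass without Rag2-/- ISG+ DC replicate 2 (1.48) or replicate 3 (1.49). Ncoa7, whose protein binds the V-ATPase, was at 299.9 and 497 CPM against 124 and 78.8 CPM, a log2 fall of -1.97 ± 0.37 (SE, edgeR adjusted p = 0.0138). It belongs to a list of V-ATPase accessory and assembly genes, in which the subunit gene Tcirg1 was placed too. Of the 13 tested there, Ncoa7 was the only one to pass in edgeR, where DESeq2 called Atp6ap1 as well. It did not pass without Rag2-/- ISG+ DC replicate 3 (-1.68).

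Among 20 tested genes for TFE factors and lysosomal mTORC1 control, Fnip2, for a partner of folliculin, was at 277 and 208 CPM in CD103+ DC1, at 76.5 and 76.6 CPM in Rag2-/- ISG+ DC and at 216 and 278 CPM in WT ISG+ DC. Its Rag2-/- ISG+ DC libraries were thus the low ones. It was the one gene of the 134 tested in the 6 lists that passed between hosts in edgeR, where DESeq2 called Pla2g15, Slc11a1 and Dmxl2 as well, and it passed in both comparisons, with a log2 fall of -1.66 ± 0.28 between populations (SE, edgeR adjusted p = 0.00835) and a rise of 1.69 ± 0.28 in WT hosts (SE, edgeR adjusted p = 0.0335). Both rest on the same Rag2-/- ISG+ DC libraries, and without either of these neither passed, with values of -1.66 and 1.69 on the log2 scale each time. Without WT replicate 2 the host value of 1.49 did not pass either. The relatives of Tfeb did not pass in the edgeR fit of all 6 libraries and were picked after their values were seen. In DESeq2 Mitf (adjusted p = 0.004678) and Tfe3 (adjusted p = 0.02835) passed as higher in ISG+ DC, and Tfec passed as higher in WT hosts in the edgeR fit of 4 libraries (adjusted p = 0.01328). Mitf was at 7.65 and 6.85 CPM in CD103+ DC1, at 17.9 and 52.7 CPM in Rag2-/- ISG+ DC and at 76.7 and 95.4 CPM in WT ISG+ DC, and Tfec was at 0 in all 4 Rag2-/- libraries and at 23.1 and 10.1 CPM in WT ISG+ DC (edgeR adjusted p = 0.0881 between hosts). Tfe3 differed by 1.36 ± 0.40 between populations (SE, edgeR adjusted p = 0.111).

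**Figure D5:**
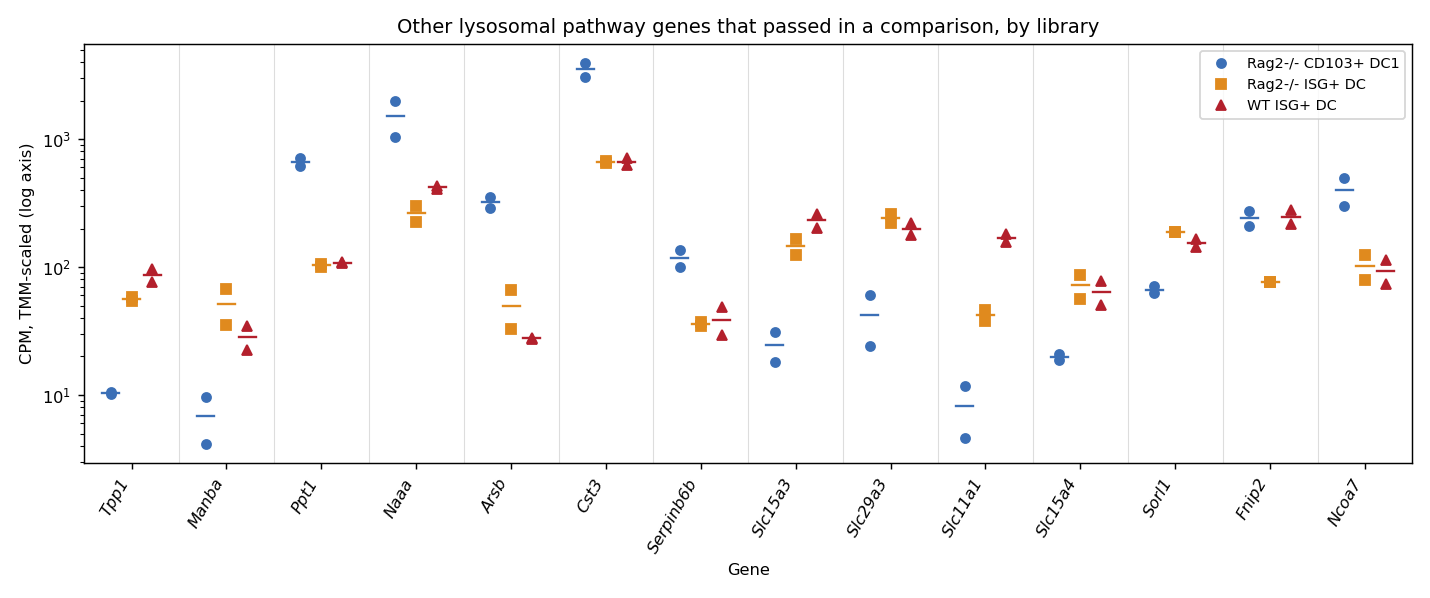
Normalised read counts of 14 other lysosomal pathway genes that passed in a comparison, in CPM on a log axis, with 1 point per library and horizontal bars for the mean of 2 libraries. Ppt1, Naaa, Arsb, Cst3, Serpinb6b and Ncoa7 sit higher in CD103+ DC1 than in both ISG+ DC groups, the transporters sit lower there, and Fnip2 is low in the Rag2-/- ISG+ DC libraries at 76.5 and 76.6 CPM.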

How the data were processed

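RNA of sorted tumor DC was sequenced in 6 libraries. A stranded kit for total RNA was used per the labels' protocols, whereas the molecule field names polyA RNA. The authors deposited estimated counts of RSEM for each gene, without normalization, and 16.1% of the values are fractional. RSEM 1.3.1, Bowtie 1.2.3 and the build mm9 are named per the submitters' processing notes. Strand setting and annotation, not given in the sources used here, leave overlapping and antisense genes inseparable, and RSEM divides reads between near copies by a model. The reference genome was of another build, so only RefSeq promoter positions are given.

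Counts were rounded and tested with edgeR 4.0.16 in R 4.3.3: filterByExpr with the groups, TMM scaling and 1 quasi-likelihood fit over all 6 libraries, two-sided, with Benjamini-Hochberg adjustment over 13223 genes and a threshold of 0.05. Residual degrees of freedom were 3, and the standard error comes from the F statistic. CPM values are scaled by TMM, and levels are not divided by gene length, so they compare libraries within a gene. The procedure was tested on simulated counts. Alternatives were other scalings, no filter, DESeq2 1.42.0, fits of 4 libraries and libraries left out.

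Members and lists were chosen with earlier results of these data known. All called members, and others set by name, are given by library, and up to 4 passing genes with the smallest p are named from each pathway list. Some genes counted in a list are not reported here by name. Against 3 counts over the CD103+ DC1 group, where Atp6v0c-ps2 was at 0, the reads given to its symbol in Rag2-/- ISG+ DC were at least 405-fold higher. This value allows for counting error only. It is no bound on the transcript, because reads are divided between Atp6v0c-ps2 and Atp6v0c by a model. Setting Atp6v0c-ps2 to that value left the medians at 0.80 for the members and 0.17 for the pump. It could not move them, because that value too lies above both medians.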

Additional observations from a re-analysis of the deposited data

How the results depend on the processing

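In every alternative run, the members and pathway genes called above kept the sign of their difference. One value that had not passed changed sign and passed, that of Atp6v0c-ps2 between hosts, at -12.49 without WT ISG+ DC replicate 1, the library that held its reads, and at 2.08 without WT replicate 2. The first of these is a fit against 0 counts and no bound. Other scaling factors gave the same counts of members in both comparisons, with 487 and 484 genes called between populations and 71 and 68 between hosts, against 488 and 73. Between populations, 1087 genes passed without the filter on low counts, 1078 with DESeq2 and 297 in a fit of the 4 libraries compared, where 0 members fell. Leaving out 1 library gave between 278 and 2068 genes, between 7 and 22 members higher and between 0 and 3 lower. Between hosts, 555 genes and 12 members higher passed without the filter, 545 and 11 with DESeq2, 444 and 12 in the fit of 4 libraries, and 801 and 16 without CD103+ DC1 replicate 3, which was added after seeing the data. Leaving out 1 ISG+ DC library gave between 27 and 198 genes, between 0 and 4 members higher and between 0 and 1 lower. The causes of these changes were not tested. The median of all genes between populations moved to 0.16 without CD103+ DC1 replicate 2 and to -0.13 without Rag2-/- ISG+ DC replicate 2, and the member counts there were not adjusted for that shift.

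Of the values of single genes under the alternatives chosen at the start, 1077 kept their side of the threshold, 79 newly passed with the same sign and 34 no longer passed. Among the members, Ctsb (log2 1.50, edgeR adjusted p = 0.0531), Atp6v0a2 (-1.15) and Atp6v1d (-1.51) did not pass in the 4-library fit. With the replicate number as a block, possible between populations only, 715 genes passed, with 13 members higher and 1 lower, and Atp6v0a2 no longer passed (-1.15, edgeR adjusted p = 0.0809). Deviations of same-numbered libraries correlated at 0.0162 over 13223 genes, and the labels do not say that the number marks a shared experiment. No paired analysis was possible between hosts because those groups share 1 number. Atp6v1g2 had at most 13 estimated counts in a library, which limits its precision.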
